A study of Mus musculus with 9 samples.

Results

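Chemokine receptors are the receptors by which leukocytes sense chemokines, and 6 of them other than the eotaxin receptor were followed here across 4 sorted lung cell populations. The genes are Ccr1, Ccr2, Cx3cr1, Cxcr2, Cxcr3 and Cxcr4. They were taken by symbol, as all probe sets annotated with exactly 1 of these symbols, which gave 11 probe sets for 6 of 18193 genes measured. Every array came from female 4get mice on the BALB/c background, 6 to 8 weeks old, which carry a green fluorescent reporter of Il4 transcription. All mice received 0.5 µg of recombinant IL-25 in 50 µL by the intra-tracheal route daily for 4 days, so no untreated group enters any comparison. CD11b-positive lung cells were enriched and pooled from 4 donors per replicate, and 400000 cells were sorted for each array.

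The 4 labels are T2M (type 2 myeloid cells, 3 arrays), eosinophils, neutrophils and macrophages (2 arrays each). All gates were set on CD11b-positive cells. T2M cells were sorted as positive for the Il4 reporter and for F4/80 without the IL-5 receptor alpha chain, with low MHC class II and mid-level Gr-1. Reporter-negative cells made up the rest. Among these, eosinophils were gated by the IL-5 receptor alpha chain, lack of F4/80, low MHC class II and high Gr-1, and neutrophils by Gr-1 and low MHC class II without that receptor or F4/80. Macrophages were gated by F4/80 and MHC class II, with neither that receptor nor Gr-1. No chemokine receptor was used in a gate.

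Chemokine receptors are 7-transmembrane proteins that couple to inhibitory G proteins and steer migration along a ligand gradient. Ccr2 carries monocytes from bone marrow to inflamed tissue, Cxcr2 does so for neutrophils, and Cxcr4 holds both in the marrow through its ligand Cxcl12. Cx3cr1, the fractalkine receptor, marks monocytes and many tissue macrophages. Ccr1 binds several inflammatory CC chemokines on myeloid cells. Cxcr3 is best known from activated T and NK cells, which it guides toward the interferon-induced chemokines Cxcl9 and Cxcl10.

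In these arrays, markers did not follow the eosinophil and neutrophil labels. The mean log2 level of 11 neutrophil markers was 11.35 to 11.78 on eosinophil-labelled arrays, against 7.23 to 8.50 on neutrophil-labelled arrays and 7.35 to 8.42 on T2M arrays. The mean of 8 eosinophil markers was 9.35 to 9.73 on T2M arrays and 6.06 to 7.08 on eosinophil-labelled arrays. The mean of 9 macrophage markers was highest on neutrophil-labelled arrays, at 9.99 and 10.10, against 8.12 and 8.40 on macrophage-labelled arrays. Populations are therefore called by the label of their arrays throughout, and a direction drawn for a label need not hold for the cell type of that name. The 2 macrophage-labelled arrays correlated at 0.995 over genes, against 0.922 to 0.974 for other replicate pairs, and whether they hold separate pools or 1 RNA on 2 arrays cannot be told apart from the table. The 3′ actin control probe set exceeded the 5′ one by 0.61 in T2M replicate 1 and by 0.54 in eosinophil-labelled replicate 1, while on the other arrays this difference was -0.10 to 0.03. The same difference for the Gapdh control probe sets moved with the labels. It was 3.42, 2.35 and 2.97 on T2M arrays, 2.41 and 1.08 on eosinophil-labelled, 2.20 and 1.46 on neutrophil-labelled and 1.02 and 1.20 on macrophage-labelled arrays. Every T2M array was thus above every macrophage-labelled and neutrophil-labelled array, and the part of this sign of RNA quality in the differences below was not tested.

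Ccr1, Ccr2 and Cx3cr1 lie on chromosome 9, Cxcr2 and Cxcr4 on chromosome 1 and Cxcr3 on chromosome X. In the RefSeq order of coding genes, Ccr2 lies next to the eotaxin receptor gene Ccr3, Ccr1 next to Xcr1, Cx3cr1 next to Ccr8, and Cxcr2 next to Cxcr1. The 250 bases before the start site are shown for Ccr1 and Cxcr2, which had the widest spans between labels, and for Cx3cr1, whose highest and lowest label were the reverse of theirs. They are from RefSeq, build GRCm38.p6, of the C57BL/6J strain and not of the BALB/c mice studied, and read from 5′ to 3′ on the strand of the gene. Capitals mark matches, on either strand, to core motifs of blood cell transcription factors.
Ccr1, chr9:123968693-123968942, strand -: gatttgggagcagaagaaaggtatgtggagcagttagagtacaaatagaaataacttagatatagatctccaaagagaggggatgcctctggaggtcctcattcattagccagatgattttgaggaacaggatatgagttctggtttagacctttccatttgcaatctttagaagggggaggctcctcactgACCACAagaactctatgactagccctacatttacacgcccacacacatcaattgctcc
Cxcr2, chr1:74153744-74153993, strand +: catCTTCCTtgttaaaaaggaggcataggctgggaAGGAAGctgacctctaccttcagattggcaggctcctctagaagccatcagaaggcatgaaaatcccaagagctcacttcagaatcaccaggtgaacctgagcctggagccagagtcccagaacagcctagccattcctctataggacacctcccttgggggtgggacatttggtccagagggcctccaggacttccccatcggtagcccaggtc
Cx3cr1, chr9:120068297-120068546, strand -: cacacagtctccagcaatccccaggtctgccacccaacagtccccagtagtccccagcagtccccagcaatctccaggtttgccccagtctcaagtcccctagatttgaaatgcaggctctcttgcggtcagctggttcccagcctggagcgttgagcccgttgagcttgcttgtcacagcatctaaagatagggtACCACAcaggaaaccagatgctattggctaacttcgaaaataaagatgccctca
The Ccr1 window held 1 RUNX match on the opposite strand at -58 to -53 from the start, and the Cx3cr1 window held 1 at -54 to -49. The Cxcr2 window held 2 ETS matches, at -215 to -210 and, on the opposite strand, at -247 to -242. The RUNX core searched was TGTGGT, found in 14% of the 32851 windows of this length. The ETS core was AGGAAG, found in 29.5%. The GATA core was AGATAA, found in 10% and in none of the windows shown. The Ccr2 window held 1 GATA match, on the opposite strand at -97 to -92. The C/EBP core TTGCNNAA and the AP-1 core TGANTCA, found in 9.6% and 6.7%, had no match in the 6 receptor windows. Of the windows not shown, that of Cxcr3 held 1 RUNX and 2 ETS matches and that of Cxcr4 held none, although both genes had the same highest and lowest label as Ccr1 and Cxcr2. These matches describe letters only, and binding was not measured. The Ccr2 window lies inside the annotated span of the gene and is not shown.

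Of the 6 receptors, 4 differed several-fold between labels. Ccr1 and Cxcr2 were highest on eosinophil-labelled arrays and lowest on macrophage-labelled arrays. Ccr2 and Cx3cr1 ran the other way, highest on macrophage-labelled and lowest on eosinophil-labelled arrays. The table gives no detection call, and Ccr1 on both macrophage-labelled arrays (by 1.18 and 1.86) and Cxcr2 on 1 of them (by 0.23) lay below the median of all genes of the array. Folds against these levels are ratios of array values as measured, since the levels were not shown to be above background. The span between the highest and the lowest label mean was 145.4-fold for Ccr1 (252.7-fold on its other probe set), 39.5-fold for Cxcr2, 12.5-fold for Cx3cr1, 10.4-fold for Ccr2, 2.5-fold for Cxcr4 and 1.47-fold for Cxcr3. On the probe set with the highest mean of each gene, the T2M mean lay between these ends for all 6 receptors. On the other probe set of Cx3cr1, 1450019_at, the T2M mean was the lowest (4.97 against 5.04 on eosinophil-labelled arrays). Both means come from levels not shown to be above background. The T2M mean was also the lowest on 1421188_at of Ccr2 (6.29 against 6.93 on eosinophil-labelled arrays).

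**Figure D1:**
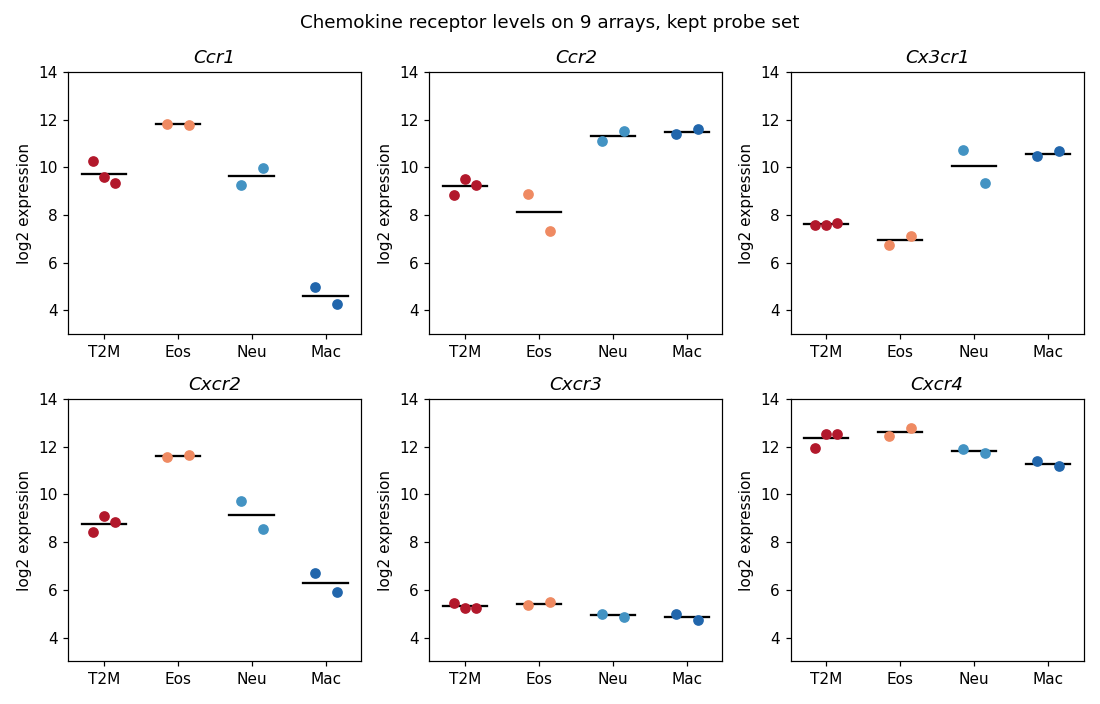
Log2 expression of the kept probe set of each receptor (vertical axis) on the 9 arrays by label (horizontal axis: T2M, Eos eosinophils, Neu neutrophils, Mac macrophages). Points are arrays and bars are label means. Ccr1 falls to 4.27 and 4.97 on macrophage-labelled arrays, while Cxcr3 stays between 4.73 and 5.49 on all arrays.

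Differences between labels were tested with limma across all genes with a call at an adjusted p (Benjamini-Hochberg) under 0.05. Against eosinophil-labelled arrays, T2M arrays were lower in 2 of 6 receptors, Ccr1 and Cxcr2, and higher in 0, or 1 at an unadjusted p under 0.05 (4.46% of all genes were called, 1.57% higher and 2.89% lower). Against neutrophil-labelled arrays, T2M arrays were lower in 2 of 6, Ccr2 and Cx3cr1, and higher in 0, also at an unadjusted p under 0.05 (2.82% of all genes called, 1.25% higher and 1.57% lower). Against macrophage-labelled arrays, T2M arrays were higher in Ccr1, Cxcr2 and Cxcr4 and lower in Ccr2 and Cx3cr1, which made 5 of 6 (17.2% of all genes called, 6.53% higher and 10.6% lower). Eosinophil-labelled arrays were higher than neutrophil-labelled ones in Ccr1 and Cxcr2 and lower in Ccr2 and Cx3cr1, 4 of 6 (7.88% of all genes called, 3.55% higher and 4.33% lower). They were higher than macrophage-labelled arrays in Ccr1, Cxcr2 and Cxcr4 and lower in Ccr2 and Cx3cr1, 5 of 6 (17.4% called, 5.89% higher and 11.5% lower). Neutrophil-labelled arrays were higher than macrophage-labelled ones in Ccr1 and Cxcr2, 2 of 6, and lower in 0, also at an unadjusted p under 0.05 (2.26% called, 1.13% in each direction). The share of receptors called was above that of all genes in each of the 6 contrasts. The receptors were taken up with earlier results of these arrays known, so that excess is a description. The contrasts share arrays and are not independent of each other.

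**Figure D2:**
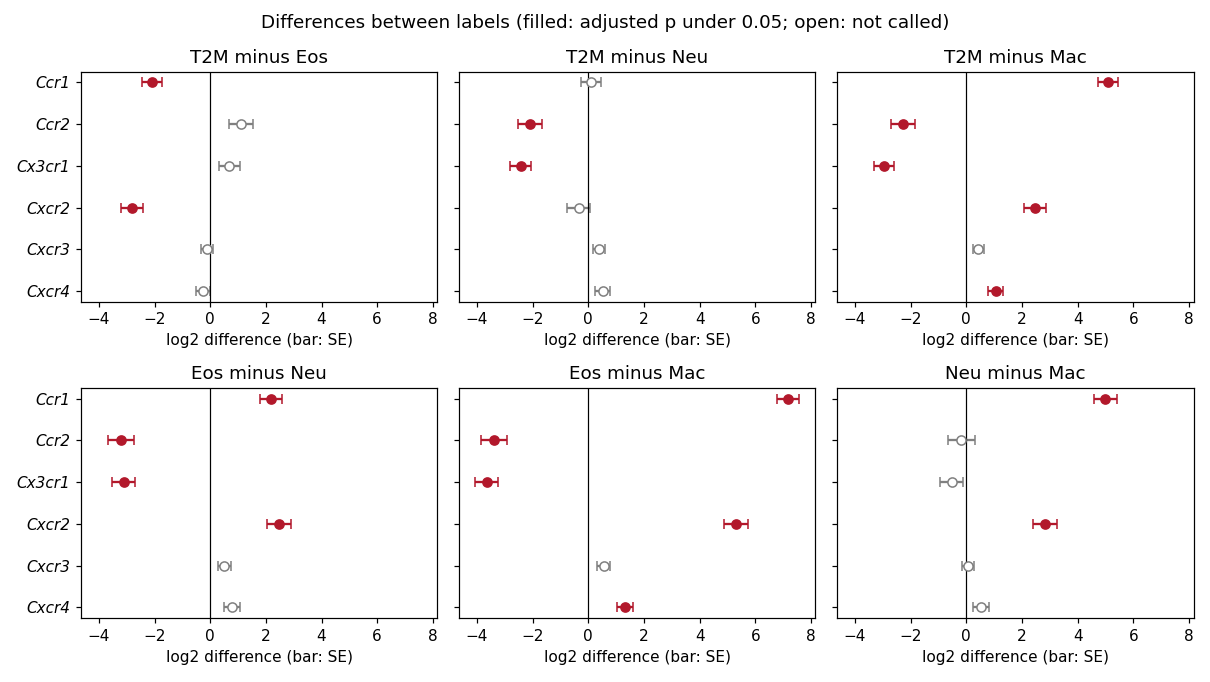
Log2 difference between 2 labels (horizontal axis, first minus second) for the 6 receptors (vertical axis) in the 6 contrasts, with the standard error as bar. Filled points passed an adjusted p under 0.05 and open points did not. Ccr1 and Cxcr2 point opposite to Ccr2 and Cx3cr1 in the contrast of eosinophil-labelled with macrophage-labelled arrays, at 7.18 and 5.30 against -3.39 and -3.64.

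Ccr1, a receptor for Ccl3, Ccl5, Ccl6, Ccl7 and Ccl9, was at 11.83 and 11.78 on the eosinophil-labelled arrays. It was at 10.25, 9.57 and 9.32 on T2M arrays, at 9.27 and 9.97 on neutrophil-labelled arrays and at 4.97 and 4.27 on macrophage-labelled arrays. T2M and neutrophil-labelled arrays overlapped, and both lay below every eosinophil-labelled and above every macrophage-labelled array. The T2M mean was 9.71 ± 0.48 (SD, n = 3), 4.26-fold below that of eosinophil-labelled arrays (log2 difference -2.09, SE 0.36, limma adjusted p = 0.0187). It was 5.09 above that of macrophage-labelled arrays on the log2 scale (SE 0.36, limma adjusted p = 2.27e-04), a measured ratio of 34.1-fold on this probe set and 62.1-fold on the other. Against neutrophil-labelled arrays the T2M difference was 0.09, with a 95% interval of -0.74 to 0.93. Eosinophil-labelled arrays exceeded neutrophil-labelled ones by 2.18 (limma adjusted p = 0.0156) and macrophage-labelled ones by 7.18 (9.31e-05), and neutrophil-labelled exceeded macrophage-labelled arrays by 5.00 (7.92e-04). The 3 calls against macrophage-labelled arrays held in every fit without 1 array and with both macrophage arrays taken as 1 sample. The T2M call against eosinophil-labelled arrays ended without T2M replicate 2 (adjusted p = 0.0615) or 3 (0.0587), without eosinophil-labelled replicate 1 (0.077) or 2 (0.113), and without both arrays with an actin end difference (0.0506), at differences of -2.33 to -1.89. The call between eosinophil-labelled and neutrophil-labelled arrays ended without eosinophil-labelled replicate 1 (0.0672) or 2 (0.0674) and without neutrophil-labelled replicate 1 (0.0512).

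Cxcr2, the receptor for Cxcl1, Cxcl2 and related neutrophil attractants, is a defining receptor of blood neutrophils. It was at 11.57 and 11.64 on eosinophil-labelled arrays and at 8.41, 9.08 and 8.86 on T2M arrays. It was at 9.71 and 8.55 on neutrophil-labelled and at 6.71 and 5.89 on macrophage-labelled arrays. The eosinophil-labelled arrays stood above all others, the macrophage-labelled arrays below all others, and T2M and neutrophil-labelled arrays overlapped. The T2M mean of 8.78 ± 0.34 (SD, n = 3) was 7.08-fold below the eosinophil-labelled mean of 11.61 ± 0.05 (SD, n = 2; log2 difference -2.82, SE 0.40, limma adjusted p = 0.00915). It was 5.58-fold above the macrophage-labelled mean of 6.30 ± 0.58 (SD, n = 2; 2.48, limma adjusted p = 0.00619). Against neutrophil-labelled arrays the difference was -0.35, with a 95% interval of -1.27 to 0.57. Eosinophil-labelled arrays exceeded neutrophil-labelled ones by 2.47 (limma adjusted p = 0.0141) and macrophage-labelled ones by 5.30 (3.16e-04), and neutrophil-labelled exceeded macrophage-labelled arrays by 2.83 (0.0145). Of 11 neutrophil markers, 8 were also called higher on eosinophil-labelled than on neutrophil-labelled arrays, against 3.55% of all genes. Between neutrophil-labelled and macrophage-labelled arrays, where Cxcr2 passed, 0 of 11 were called, against 2.26% of all genes. At an unadjusted p under 0.05, 4 of the 11 were higher and 0 lower on neutrophil-labelled arrays. Their median difference was 0.86 against 0.17 for all genes. The part of cell composition in these differences was not tested. In sorted pools, fewer cells of a type and less RNA per cell cannot be told apart.

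The contrast of Cxcr2 between eosinophil-labelled and macrophage-labelled arrays kept its call in every fit without 1 array. The T2M call against eosinophil-labelled arrays ended without eosinophil-labelled replicate 2 (adjusted p = 0.0698) and without both arrays with an actin end difference (0.0651). The T2M call against macrophage-labelled arrays ended without macrophage-labelled replicate 2 (0.0756) and with the macrophage arrays taken as 1 sample (0.0523). The call between eosinophil-labelled and neutrophil-labelled arrays ended without eosinophil-labelled replicate 1 (0.0581) or 2 (0.0674) and without both arrays with an actin end difference (0.052). The call between neutrophil-labelled and macrophage-labelled arrays ended without neutrophil-labelled replicate 1 (0.0542), without macrophage-labelled replicate 1 (0.0631) or 2 (0.169), and with these taken as 1 sample (0.104).

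Ccr2, the receptor for Ccl2 and Ccl7 on inflammatory monocytes, was at 11.39 and 11.60 on macrophage-labelled and at 11.10 and 11.54 on neutrophil-labelled arrays. It was at 8.85, 9.51 and 9.27 on T2M arrays and at 8.88 and 7.34 on eosinophil-labelled arrays. The macrophage-labelled and neutrophil-labelled arrays overlapped, every T2M and eosinophil-labelled array lay below them, and T2M and eosinophil-labelled arrays overlapped. The T2M mean of 9.21 ± 0.33 (SD, n = 3) was 4.89-fold below the macrophage-labelled mean (log2 difference -2.29, SE 0.43, limma adjusted p = 0.0117) and 4.31-fold below the neutrophil-labelled mean (-2.11, limma adjusted p = 0.0455). Eosinophil-labelled arrays were 10.4-fold below macrophage-labelled arrays (-3.39, SE 0.48, limma adjusted p = 0.00268) and 9.21-fold below neutrophil-labelled arrays (-3.20, 0.00731). Both of these last calls held in every fit without 1 array. Macrophage-labelled and neutrophil-labelled arrays differed by 0.18 (95% interval of neutrophil-labelled minus macrophage-labelled -1.27 to 0.91). T2M exceeded eosinophil-labelled arrays by 1.10 without passing the test (limma adjusted p = 0.237), and that difference rose to 1.87 and passed without eosinophil-labelled replicate 1 (adjusted p = 0.0435). It also passed without both arrays with an actin end difference (0.0355).

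The call of Ccr2 between T2M and macrophage-labelled arrays ended without macrophage-labelled replicate 1 (adjusted p = 0.0966) or 2 (0.103) and with these taken as 1 sample (0.103). The call of Ccr2 between T2M and neutrophil-labelled arrays ended in 7 of 9 fits without 1 array. These were the fits without T2M replicate 1 (0.0815), 2 (0.0829) or 3 (0.123), without macrophage-labelled replicate 1 or 2 (0.106 each), and without neutrophil-labelled replicate 1 (0.0669) or 2 (0.134). The difference itself stayed between -2.33 and -1.89 in these fits.

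Cx3cr1, the receptor for the membrane-bound chemokine Cx3cl1, was at 10.45 and 10.70 on macrophage-labelled and at 10.73 and 9.36 on neutrophil-labelled arrays. It was at 7.58, 7.59 and 7.68 on T2M arrays and at 6.73 and 7.13 on eosinophil-labelled arrays. The T2M arrays agreed closely, at 7.62 ± 0.06 (SD, n = 3), above both eosinophil-labelled arrays and below every macrophage-labelled and neutrophil-labelled array. T2M was 7.78-fold below macrophage-labelled arrays (log2 difference -2.96, SE 0.38, limma adjusted p = 0.00244) and 5.38-fold below neutrophil-labelled arrays (-2.43, limma adjusted p = 0.0201). Eosinophil-labelled arrays were 12.5-fold below macrophage-labelled arrays (-3.64, limma adjusted p = 0.00115) and 8.64-fold below neutrophil-labelled arrays (-3.11, 0.0048). T2M exceeded eosinophil-labelled arrays by 0.69, with a 95% interval of -0.18 to 1.55 (limma adjusted p = 0.432). Neutrophil-labelled and macrophage-labelled arrays overlapped, with a difference of -0.53 and a 95% interval of -1.48 to 0.41. Of these 4 calls, 3 held in every fit without 1 array. The call between T2M and neutrophil-labelled arrays ended without T2M replicate 2 (adjusted p = 0.0554) or 3 (0.0658), without macrophage-labelled replicate 1 or 2 (0.0619 each) and with these taken as 1 sample (0.0619).

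Cxcr4, the receptor for Cxcl12 that is present on most leukocytes, varied little. It was at 12.46 and 12.78 on eosinophil-labelled, 11.96, 12.55 and 12.56 on T2M, 11.92 and 11.75 on neutrophil-labelled and 11.40 and 11.20 on macrophage-labelled arrays. The eosinophil-labelled and T2M arrays overlapped, the neutrophil-labelled arrays lay below both, and the macrophage-labelled arrays lay below all others. T2M exceeded macrophage-labelled arrays 2.08-fold (log2 difference 1.05, SE 0.26, limma adjusted p = 0.0294), and eosinophil-labelled arrays exceeded them 2.5-fold (1.32, SE 0.28, limma adjusted p = 0.0163). No neighbouring pair of labels in this order passed the test, with differences of 0.27, 0.52 and 0.54 from the top down. The T2M call ended without T2M replicate 2 (adjusted p = 0.0844) or 3 (0.088), without macrophage-labelled replicate 1 (0.167) or 2 (0.201), and with these taken as 1 sample (0.187). The eosinophil call ended without eosinophil-labelled replicate 2 (0.0895), without macrophage-labelled replicate 1 (0.0939) or 2 (0.125), and with these taken as 1 sample (0.108).

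Cxcr3 was at 5.44, 5.24 and 5.24 on T2M, 5.36 and 5.49 on eosinophil-labelled, 5.00 and 4.85 on neutrophil-labelled and 5.00 and 4.73 on macrophage-labelled arrays. On each array it lay below the median of all genes of that array, by 0.55 to 1.39 on the log2 scale. None of the 6 contrasts passed limma's test for Cxcr3, and 1 had an unadjusted p under 0.05. That was eosinophil-labelled minus macrophage-labelled, at 0.56 (95% interval 0.03 to 1.08, limma adjusted p = 0.133). The mean of 9 T cell markers was 6.38 to 6.75 on T2M arrays and 6.14 to 6.36 on the arrays of the other labels. The mean of 7 NK cell markers was 6.58 to 7.28 on T2M arrays and 5.66 and 7.65 on neutrophil-labelled arrays. It was 6.55 and 6.58 on eosinophil-labelled and 6.16 and 6.23 on macrophage-labelled arrays. A link of Cxcr3, which was below the median on every array, with these cell types was not tested.

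Some calls also ended under other fits of the same values. With array weights the calls of Ccr2 (adjusted p = 0.185) and Cx3cr1 (0.0592) between T2M and neutrophil-labelled arrays ended. So did those of Ccr1 (0.113) and Cxcr2 (0.102) between eosinophil-labelled and neutrophil-labelled arrays and of Cxcr2 (0.0642) between neutrophil-labelled and macrophage-labelled arrays. With only the arrays of the 2 labels in the fit, all calls of these 3 contrasts ended except that of Ccr1 between neutrophil-labelled and macrophage-labelled arrays, with adjusted p from 0.0595 to 0.106. The call of Cx3cr1 between T2M and neutrophil-labelled arrays ended with quantile normalization (0.0561), and that of Ccr2 with the macrophage arrays as 1 sample (0.106).

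Of the 6 genes, 3 were measured by more than 1 probe set, and the values above are from the probe set with the highest mean. The second Ccr1 probe set followed the first, with T2M minus eosinophil-labelled at -2.02 (limma adjusted p = 0.0403 over all probe sets) and T2M minus macrophage-labelled at 5.96 (3.54e-04). All 4 Ccr2 probe sets were lower in T2M than in macrophage-labelled arrays and passed, with differences of -2.29, -2.41, -3.32 and -3.78. Against neutrophil-labelled arrays they were also lower, at -2.11 to -2.76, and 1 of 4 passed when every probe set was tested on its own. Eosinophil-labelled arrays were lower than neutrophil-labelled ones on all 4 and passed on 3, with 1421188_at at -2.12 (limma adjusted p = 0.222). Neutrophil-labelled minus macrophage-labelled arrays was at -0.18, -0.29, -0.66 and -1.02 and passed on none. On 1421187_at (-0.66) and 1421188_at (-1.02) the arrays of these labels did not overlap. Between T2M and eosinophil-labelled arrays the 4 Ccr2 probe sets differed in sign, at 1.10, 0.90, 0.01 and -0.64, and none passed limma's test there. The probe set 1421188_at read 4.50 on T2M replicate 1 against 7.46 and 6.91 on the other T2M arrays, and T2M replicate 1 was one of 2 arrays with an actin end difference, whose part in this value was not tested.

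The 2 Cx3cr1 probe sets disagreed within the neutrophil-labelled pair. The kept probe set 1450020_at read 10.73 on replicate 1 and 9.36 on replicate 2. The other probe set, 1450019_at, read 5.67 on replicate 1 and 7.27 on replicate 2, so the order of the arrays was opposite. On 1450019_at, neutrophil-labelled arrays lay 2.01 below macrophage-labelled arrays (limma adjusted p = 0.0998 over all probe sets), and T2M lay 1.49 below neutrophil-labelled arrays without passing (0.134). With the mean of both probe sets, neutrophil-labelled arrays were lower than macrophage-labelled arrays by 1.27 and passed (limma adjusted p = 0.0221). Eosinophil-labelled arrays lay 1.42 below neutrophil-labelled arrays on 1450019_at and did not pass (0.136), against 3.11 below and a call on the kept probe set. Macrophage-labelled arrays had the highest mean on both probe sets, and their difference from neutrophil-labelled arrays passed on neither probe set alone. T2M minus eosinophil-labelled arrays changed sign, at 0.69 on the kept probe set and -0.07 on 1450019_at, and passed on neither. On 1450019_at every array of both labels lay below its median of all probe sets (5.53 to 5.68). These levels were not shown to be above background. T2M was below macrophage-labelled arrays on both, at -2.96 and -3.50.

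**Figure D3:**
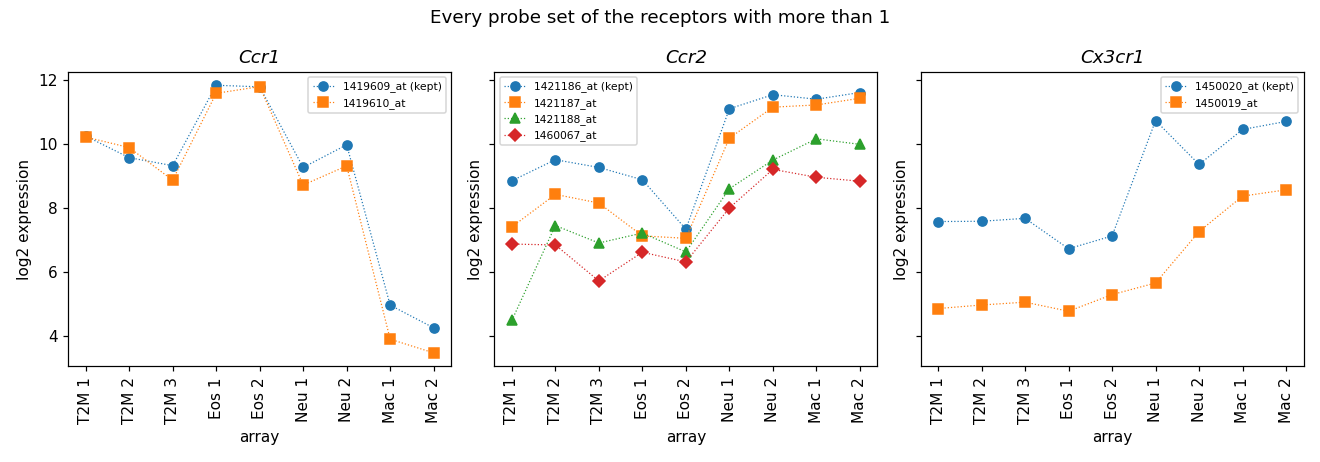
Log2 expression (vertical axis) on the 9 arrays (horizontal axis, label and replicate number) of every probe set of Ccr1, Ccr2 and Cx3cr1. Each line is a probe set, and the dotted lines only join its points. The 2 Cx3cr1 probe sets take opposite orders on the neutrophil-labelled arrays, at 10.73 and 9.36 against 5.67 and 7.27.

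For each receptor, the genes with the most similar pattern were found by Pearson's r over the 9 arrays among 10129 named genes with a label mean at or above the median. Arrays of a label share their sort, so r mostly follows the label means. For Ccr1 these were Arg2 (mitochondrial arginase, r = 0.990), Slc2a1 (a glucose transporter, 0.990) and Clec4e (the lectin Mincle, 0.988). Clec4e had label means of 12.64 on eosinophil-labelled, 11.05 on T2M, 10.35 on neutrophil-labelled and 5.96 on macrophage-labelled arrays. For Cxcr2 they were Cd33 (0.980), the decoy IL-1 receptor Il1r2 (0.980) and Lrg1 (0.978). For Ccr2 they were Tmem176a (0.995), the respiratory chain gene Ndufa9 (0.988) and Mtr, methionine synthase (0.980). For Cx3cr1 they were Aldh1b1 (0.987), Ppp5c (0.979) and Tm9sf4 (0.971). For Cxcr4 they were the interferon receptor chain Ifnar1 (0.986), Mxd1 (0.981) and Cyp4f18 (0.972). For Cxcr3 they were Stfa2l1 (0.943), Slco4a1 (0.943) and Tnfaip3 (0.941). Cxcr3 lay below the median of all genes on every array and passed in no contrast, so its r values rest on small differences.

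Of 17 other chemokine receptor genes listed, 15 were measured. Between T2M and eosinophil-labelled arrays limma called 0 of 15, where 4.46% of all genes were called. At an unadjusted p under 0.05, 3 were higher and 2 lower. The median difference of the 15 was 0.36 against 0.06 for all genes. Against neutrophil-labelled arrays, where 2.82% of all genes were called, 1 of 15 was called. This was Ackr1, an atypical receptor that binds chemokines without signalling (1.27 higher in T2M, limma adjusted p = 0.0411). The Ackr1 call held in 2 of 9 fits without 1 array. Against macrophage-labelled arrays 3 of 15 were called, a share near the 17.2% of all genes called in this contrast. Ccrl2, an atypical receptor for chemerin, was higher in T2M (2.25, limma adjusted p = 0.00288), at 11.40, 10.81 and 10.87 against 9.14 and 8.41, and was higher still on eosinophil-labelled arrays, at 11.81 and 12.13. Ackr3, the second receptor of Cxcl12, was higher in T2M (4.18, limma adjusted p = 0.0173), at 8.33, 7.03 and 7.24 against 3.51 and 3.19, and that call held in 7 of 9 fits without 1 array. Both Ackr3 values on macrophage-labelled arrays lay below the median of all probe sets (5.48 and 5.53). They were not shown to be above background. Ccr6, the receptor for Ccl20, was lower in T2M (-2.23, limma adjusted p = 0.00192), at 6.32, 6.44 and 5.86 against 8.45 and 8.41. Ccr7, the lymph node homing receptor of dendritic cells, was at 9.15 and 8.54 on macrophage-labelled arrays and at 6.24, 7.80 and 7.63 on T2M arrays, and did not pass (-1.62, limma adjusted p = 0.0707). The dendritic cell marker list, which holds Ccr7, was also highest on macrophage-labelled arrays, with array means of 9.62 and 9.89 against 7.04 to 7.75 on T2M arrays.

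All 16 listed ligand genes of the 6 receptors were measured in the same cells. Against macrophage-labelled arrays 8 of 16 were higher in T2M and 1 was lower, where 6.53% of all genes were called higher and 10.6% lower. The median difference was 1.31 against 0.18 for all genes. The Ccr2 ligands Ccl2 (3.62), Ccl7 (5.80) and Ccl12 (5.82) and the Cxcr2 ligands Cxcl1 (4.31), Cxcl2 (3.69) and Cxcl3 (7.34) were among them, with limma adjusted p from 1.80e-04 to 0.00312. Ccl2 was at 10.44, 11.31 and 10.48 on T2M arrays and at 7.30 and 6.96 on macrophage-labelled arrays. Cxcl3 was at 10.65, 10.30 and 9.89 on T2M arrays and at 3.78 and 2.11 on macrophage-labelled arrays. On both macrophage-labelled arrays Ccl7, Ccl12 and Cxcl3 lay below the median of all probe sets (5.48 and 5.53). Levels this low were not shown to be above background, so the differences are as measured. These 6 calls held in every fit without 1 array. The macrophage-labelled arrays thus had the lowest level of 3 Ccr2 ligands. On the kept probe set their Ccr2 level overlapped that of the neutrophil-labelled arrays. On the latter Ccl2 was at 12.07 and 11.74, so these labels differed in the ligand (4.78, limma adjusted p = 5.64e-04) while their Ccr2 difference did not pass. For Cxcr2 the macrophage-labelled arrays were lowest in the receptor and in the ligands named.

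Against eosinophil-labelled arrays, where 1.57% of all genes were called higher and 2.89% lower, 3 of 16 ligands were higher in T2M, Ccl2 (1.38, limma adjusted p = 0.047), Ccl6 (0.94, 0.0444) and Ccl9 (1.30, 0.0222), and 1 was lower, the Cxcr3 ligand Cxcl10 (-1.92, 0.0197). In fits without 1 array the calls held in 3, 2, 4 and 7 of 9, in that order. Against neutrophil-labelled arrays, where 2.82% of all genes were called, limma called 0 of 16. At an unadjusted p under 0.05, 1 was higher and 1 lower. Cxcl9, the other Cxcr3 ligand listed, was lower in T2M than in macrophage-labelled arrays (-3.26, limma adjusted p = 0.0234, held in 5 of 9 fits without 1 array). Its levels on T2M arrays (3.625 to 4.741) lay below the median of all probe sets and were not shown to be above background. The Cxcr4 ligand Cxcl12 was at 5.82 to 6.34 on all 9 arrays and the Cx3cr1 ligand Cx3cl1 at 5.74 to 7.0, and neither passed in a T2M contrast.

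**Figure D4:**
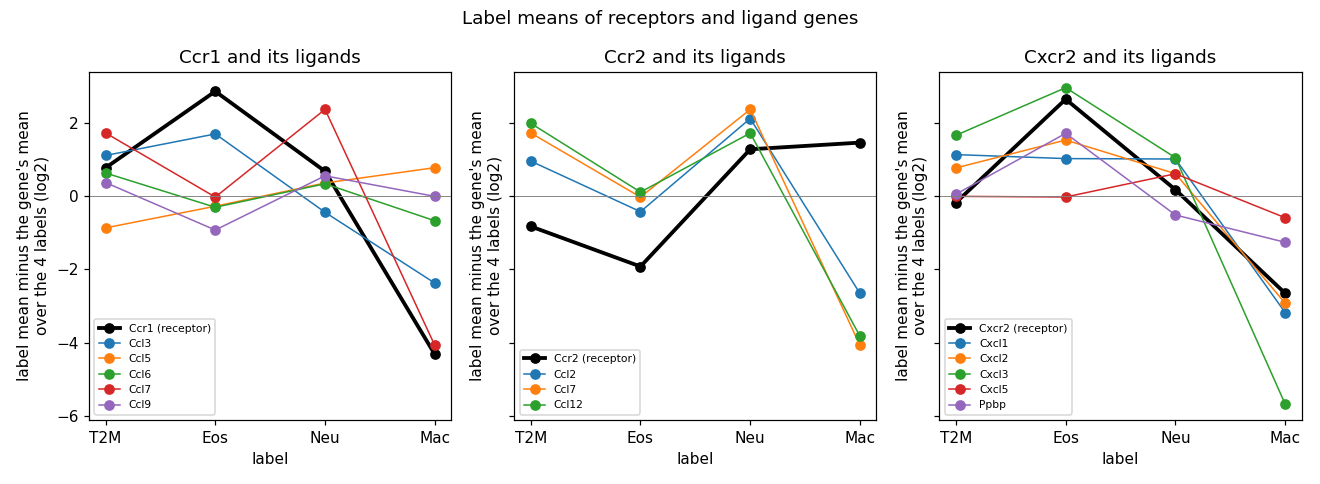
Label mean of each gene minus its mean over the 4 labels (vertical axis, log2) by label (horizontal axis) for Ccr1, Ccr2 and Cxcr2 (thick black lines) and their ligand genes (thin lines). Ccl2, Ccl7 and Ccl12 are at their lowest on macrophage-labelled arrays, where the Ccr2 line is close to its level on neutrophil-labelled arrays.

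Of 25 genes of chemokine receptor signalling and desensitisation listed, 24 were measured. Against macrophage-labelled arrays limma called 6 of 24 lower in T2M, where 10.6% of all genes were called lower, and 0 higher, also at an unadjusted p under 0.05. The median difference was -0.85 against 0.18 for all genes. Grk3, a kinase that desensitises occupied receptors, was lower (-4.05, limma adjusted p = 0.00323), at 7.17, 8.84 and 6.91 against 11.62 and 11.75. Prex1, a Rac exchange factor driven by G protein beta-gamma subunits, was lower (-3.84, limma adjusted p = 0.00231), at 6.56, 7.55 and 6.23 against 10.59 and 10.65. Both calls held in every fit without 1 array. The others were Rgs10 (-2.39), Gng2 (-1.66), Grk5 (-1.13) and Rac1 (-1.0), whose calls held in 7, 3, 7 and 5 of 9 fits without 1 array. Against eosinophil-labelled arrays 2 of 24 were lower, where 2.89% of all genes were called lower. Arrb2, a beta-arrestin (-1.64, limma adjusted p = 0.0471), and Prex1 (-2.47, 0.0284) were lower in T2M. Against neutrophil-labelled arrays, where 1.57% of all genes were called lower, 2 of 24 were lower. Grk5 (-1.19, limma adjusted p = 0.0278) and Prex1 (-2.55, 0.0364) were these 2. In these contrasts 2 and 3 genes were higher at an unadjusted p under 0.05, and none of them passed after limma's adjustment. Prex1 was thus lower in T2M than in each other label, though without 1 array its calls against eosinophil-labelled and neutrophil-labelled arrays held in 4 and 3 of 9 fits.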

How the data were processed

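Expression was measured on 9 arrays of sorted lung cells, each from 50 ng of amplified total RNA. The deposited values are log2 expression per probe set. The submitters' processing notes list the tools limma, affy and RMA for the authors' part, and versions and settings are not given in the sources used here. Array medians ran from 5.48 to 5.68. The table holds 45101 probe sets, and its 64 controls were not tested. In the platform annotation 34945 have 1 symbol, 932 several and 9160 no symbol, and 34741 matched RefSeq (GRCm38.p6) by gene ID. A gene (18193 in all) was represented by its brightest probe set on average over the arrays. Labels were compared in R 4.3.3 using limma 3.58.1 (label means in lmFit, then eBayes, two-sided) on all 9 arrays, with 5 residual degrees of freedom, and p-values were adjusted by Benjamini-Hochberg over all genes of a contrast. The median SE was 0.308 for T2M contrasts and 0.337 for others, and the number of arrays limits the precision. The 95% intervals use the moderated SE and are not adjusted for the number of tests. A difference of 1 was read as 2-fold. Where a probe set is given an adjusted p over all probe sets, every probe set was fitted on its own. P-values take arrays as separate pools, as the labels say. For the macrophage-labelled arrays the values cannot tell this from 1 RNA on 2 arrays. All 6 receptors and all their probe sets are named. From the lists of other receptors, ligands and signalling genes, up to 4 called and 2 other genes with the largest differences could be named per contrast, and other list genes were named for their link to a receptor after their values were seen. The members and lists were chosen with earlier results of these data known. Figures were drawn with matplotlib 3.10.9.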

Additional observations from a re-analysis of the deposited data

How the results depend on the processing

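Alternatives covered the probe set kept, a filter on dim genes, scaling, moderation, array weights, the arrays in the fit, the replicate block, the macrophage arrays as 1 sample and each array left out. A further one, chosen after seeing the data, left out both arrays with an actin end difference. With arrays set to 1 common median, the median over all genes went from 0.06 to -0.09 for T2M minus eosinophil-labelled arrays and from -0.07 to 0.09 for eosinophil-labelled minus neutrophil-labelled arrays. Quantile normalization moved it from 0.18 to 0.03, from 0.18 to 0.06 and from 0.17 to 0.04 for T2M, eosinophil-labelled and neutrophil-labelled minus macrophage-labelled arrays, and no called receptor changed direction under either scaling. The number of 6 receptors called went from 2 to 1 for T2M against eosinophil-labelled arrays with the replicate block and without both arrays with an actin end difference. For T2M against neutrophil-labelled arrays it went from 2 to 1 with quantile normalization, and to 0 with array weights, with the replicate block, with the macrophage arrays as 1 sample (fewer samples) and with only the arrays of the 2 labels. It went from 5 to 2 for T2M against macrophage-labelled arrays with these as 1 sample. For eosinophil-labelled against neutrophil-labelled arrays it went from 4 to 2 with array weights and to 0 with only the arrays of the 2 labels. For neutrophil-labelled against macrophage-labelled arrays it went from 2 to 1 with array weights, the macrophage arrays as 1 sample and only the arrays of the 2 labels. Calls among all 18193 genes fell in such fits. For T2M against neutrophil-labelled arrays they went from 513 to 484 with quantile normalization and to 53 with array weights. The replicate block gave 43 there, and the arrays of the 2 labels alone gave 0. Eosinophil-labelled against neutrophil-labelled arrays went from 1433 to 526 with array weights and to 215 with the 2 labels alone. Neutrophil-labelled against macrophage-labelled arrays went from 412 to 289 and 151 in the same fits. Other causes were not tested. Without 1 array, where a lone array is taken to vary like the rest, the counts ran from 0 to 2, 0 to 2, 2 to 5, 2 to 4, 4 to 5 and 1 to 2 in the order of contrasts in the text.

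Signs turned for uncalled differences only. Cxcr3 in neutrophil-labelled minus macrophage-labelled arrays (0.06) became -0.002 at a common median and -0.23 with quantile normalization, and ran from -0.079 to 0.19 without 1 array. Ccr1 in T2M minus neutrophil-labelled arrays (0.09) became -0.096 with array weights and -0.17 without both arrays with an actin end difference, and ran from -0.26 to 0.45 without 1 array. Without 1 array Cxcr2 in that contrast ran from -0.93 to 0.23, and in neutrophil-labelled minus macrophage-labelled arrays Ccr2 ran from -0.40 to 0.037 and Cx3cr1 from -1.22 to 0.15. The dim filter removed Cxcr3. Replicate numbers are not stated to pair samples. Deviations of same-numbered arrays correlated at 0.50 and 0.44 between T2M and eosinophil-labelled arrays, whose replicates 1 share the actin end difference, and at -0.18 to 0.05 between other labels, so a paired design was not assumed and the replicate block is given as an alternative. It ended the calls of Ccr1 between T2M and eosinophil-labelled arrays (adjusted p = 0.0781), of Ccr2 (0.145) and Cx3cr1 (0.0826) between T2M and neutrophil-labelled arrays and of Cxcr4 between T2M and macrophage-labelled arrays (0.114), and no other receptor call.

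In the T2M contrasts with eosinophil-labelled, neutrophil-labelled and macrophage-labelled arrays, calls were also counted over the alternatives other than leaving out 1 array. Those among other receptors were 0, 0 to 1 and 2 to 9. Those among ligands were 0 to 4, 0 and 7 to 12, and those among signalling genes 0 to 5, 0 to 3 and 2 to 15. Over all 18193 genes, calls in these contrasts went from 812, 513 and 3123 to 1426, 53 and 10163 with array weights. With the replicate block they went to 360, 43 and 1733. The list counts are thus not read as results about the lists.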
